A study of Mus musculus with 6 samples.

Results

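The 46 genes described here encode the proteins that copy DNA and supply its building blocks, out of 41388 genes listed. They were picked by function: origin licensing, the MCM2-7 helicase, helicase activation, the replicative polymerases, the sliding clamp and its loader, Okazaki fragment and single-stranded DNA factors, nucleotide supply, and the assembly of chromatin behind the fork. The list was chosen with the contrast of these 6 libraries already known, so the differences of its members between the groups are given as a description and are not a test.

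Before a cell enters S phase, the origin recognition complex, CDC6 and CDT1 load the MCM2-7 ring onto origins. CDC45 and the GINS complex then turn that ring into an active helicase, and DNA polymerases α, δ and ε copy both strands with the help of PCNA and its loader. Genes of this kind are classically transcribed at the G1/S boundary under E2F transcription factors. Hepatocytes in the adult liver are mostly quiescent, and they re-enter the cell cycle after tissue loss.

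The cells were primary murine hepatocytes of strain C57BL/6J, isolated by collagenase and kept overnight in growth medium. The 3 control libraries (β-gal 1, 2 and 3) came from cells given adenovirus encoding β-galactosidase, a bacterial enzyme that serves as the control transgene. The other 3 (Aloxe3 7, 8 and 9) came from cells given adenovirus encoding Aloxe3, the lipoxygenase eLOX3. Both groups received about 1000000 viral particles per 1000000 cells for 24 h. Each transgene came in its own virus, so effects of the transgene and of the virus preparation cannot be told apart. The sources do not say whether libraries of a group came from separate animals or cultures, and p-values then measure only the spread between these samples.

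Levels are RPKM, reads per kilobase of gene and per 1000000 reads, at a depth of 25521908 to 32431318 reads per library. Aloxe3 itself was listed at 2.04, 2.06 and 1.74 RPKM in β-gal libraries and at 42.3, 45.8 and 56.3 RPKM in Aloxe3 libraries, a log2 fold change of 4.05 (SE 0.10). Of 10 hepatocyte markers, the 6 that encode secreted proteins or HNF4α were abundant: Alb lay between 4360 and 4550 RPKM, and Apoa1, Apob, Serpina1c, Ttr and Hnf4a averaged 243, 243, 139, 124 and 26.9 RPKM in β-gal cells. Ttr, transthyretin, was lower with Aloxe3, at 100 ± 1.1 against 124 ± 6.5 RPKM (adjusted p = 0.0448 in limma). The 4 that encode metabolic enzymes were low. Cps1, of the urea cycle, averaged 0.985 ± 0.069 RPKM in β-gal and 1.5 ± 0.18 RPKM in Aloxe3 cells (adjusted p = 0.161 in limma). Cyp2e1 and Cyp3a11 averaged 2.17 and 0.609 RPKM in β-gal cells, and Tat lay between 0.193 and 0.661 RPKM in the 6 libraries. The biliary markers Krt19 and Sox9 averaged 42.9 and 41.5 RPKM in β-gal cells and Spp1 averaged 1460 RPKM, while Krt7 averaged 0.13 RPKM. Epcam averaged 0.426 RPKM, so that 3 of the 5 biliary markers were abundant. Of the other cell types, the summed level of 10 Kupffer cell markers was 155.5 to 160.9 RPKM in β-gal and 136.5 to 151 RPKM in Aloxe3 libraries, nearly all of it from Cd68. Of the rest, Clec4f and Vsig4 were at or near 0 in all libraries. Adgre1, Cd5l, Csf1r, C1qa, C1qb, C1qc and Marco averaged from 0.758 RPKM (Cd5l) to 2.06 RPKM (C1qb) in β-gal cells. The 8 endothelial markers summed to 36.99 to 43.31 RPKM in β-gal and 37.6 to 42.41 RPKM in Aloxe3 libraries. Their β-gal means ran from 0.112 RPKM for Clec4g to 15.3 RPKM for Cdh5, with Stab2 at 2.94 RPKM. The 9 stellate cell markers summed to 4.631 to 5.102 RPKM and 4.487 to 5.009 RPKM. Lrat was at 0 throughout, and Col1a1 was highest, at 2.37 RPKM in the β-gal mean. The 5 leukocyte markers stayed between 0.2477 and 0.3926 RPKM in sum. As RNA came from bulk cells, fewer cells of a type and less RNA per cell cannot be told apart.

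Upstream sequences were available from RefSeq (GRCm38.p6) for 39 of the 46 genes, and there was no entry for Mcm4, Gins1, Gins2, Gins4, Prim2, Pole and Rfc2. The 180 bases before the RefSeq start are given 5′ to 3′ on the strand of the gene. They are shown for members that hold an E2F word there or passed the adjusted p threshold described further on, where no annotated exon overlapped. An E2F word is TTTGGCGC, TTTCCCGC, TTTGCCGC or TTTCGCGC on either strand, and its letters are in capitals. Mcm6 lies on the minus strand (chr1:128359706-128359885), Mcm5 on the plus strand (chr8:75109329-75109508) and Pola1 on the minus strand (chrX:93632156-93632335), and these 3 stretches hold such words. Chaf1b on the plus strand (chr16:93883721-93883900) and Dnajc9 on the minus strand (chr14:20388911-20389090) hold none in this stretch.
Mcm6: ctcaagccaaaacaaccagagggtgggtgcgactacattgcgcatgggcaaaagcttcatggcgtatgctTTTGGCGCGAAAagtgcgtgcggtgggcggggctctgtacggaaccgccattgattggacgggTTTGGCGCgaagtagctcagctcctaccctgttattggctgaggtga
Mcm5: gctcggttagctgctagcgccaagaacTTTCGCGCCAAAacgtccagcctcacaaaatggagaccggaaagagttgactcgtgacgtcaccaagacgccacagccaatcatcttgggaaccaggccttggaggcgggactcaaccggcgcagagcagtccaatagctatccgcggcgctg
Pola1: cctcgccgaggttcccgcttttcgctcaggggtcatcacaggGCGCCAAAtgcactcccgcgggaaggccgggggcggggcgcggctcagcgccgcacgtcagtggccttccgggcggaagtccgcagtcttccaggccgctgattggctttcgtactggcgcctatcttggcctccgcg
Chaf1b: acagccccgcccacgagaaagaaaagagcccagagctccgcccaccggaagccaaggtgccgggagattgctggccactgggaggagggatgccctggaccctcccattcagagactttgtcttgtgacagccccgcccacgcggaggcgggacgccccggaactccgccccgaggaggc
Dnajc9: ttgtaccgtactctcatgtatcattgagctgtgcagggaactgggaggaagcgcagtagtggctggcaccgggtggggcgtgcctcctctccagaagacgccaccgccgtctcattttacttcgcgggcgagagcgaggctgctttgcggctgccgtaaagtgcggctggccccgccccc

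In Mcm6 the words begin at positions -110, -106 and -47 from the start, and the first pair lie on opposite strands and overlap by 4 bases, forming a single 12-base block. Mcm5 has a block of the same make at -153 and -149. Pola1 has a single word at -138, on the reverse strand. In the full window of 300 bases, from 250 bases before to 50 bases after the start, 13 of 39 members (33.3%) held an E2F word, against 2.32% of 27025 windows of all genes and 4.22% of 9255 windows of the genes tested. Besides the 3 genes above, these were Orc1, Cdc6, Cdt1, Mcm3, Mcm7, Gins3, Pold1, Pole2, Rfc3 and Dnajc9. In Cdt1, Mcm3, Pold1, Pole2 and Dnajc9 the words lay only after the start.

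**Figure D1:**
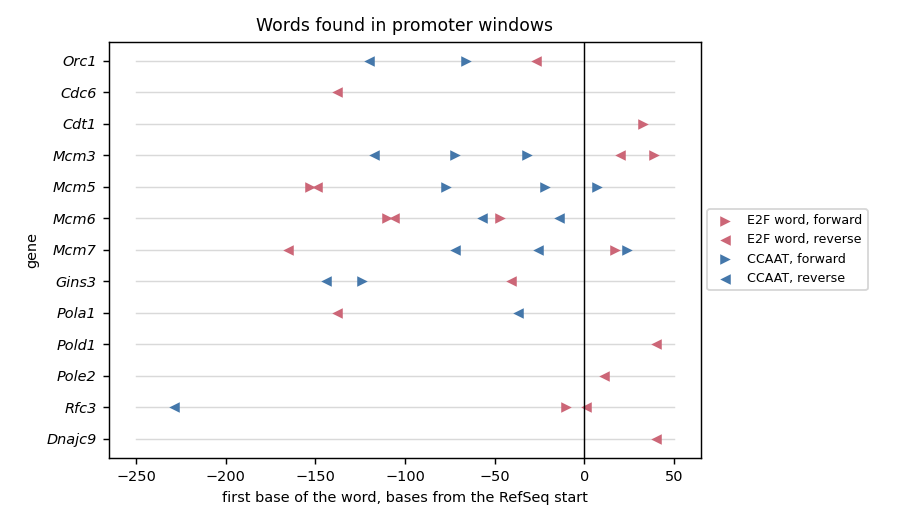
Positions of E2F words (red) and CCAAT words (blue) in the 13 members whose RefSeq window holds an E2F word; the x axis is the distance in bases of the first base of the word from the RefSeq start, and the direction of each triangle gives the strand. Mcm6 holds 3 E2F words and Mcm5 has 2 that overlap, whereas those of Cdt1, Mcm3, Pold1, Pole2 and Dnajc9 lie to the right of the start.

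The CCAAT word, bound by NF-Y, was present on either strand in 25 of 39 member windows (64.1%), against 37.9% of all windows and 38.7% of those of the genes tested. Mitosis genes held it in 77.3% of windows, other chromatin assembly factors in 66.7% and G1/S cyclins, kinases and E2F factors in 45%. Other nucleotide synthesis enzymes held it in 44.8% and other replication factors in 32%. The cell cycle homology words TTTGAA and TTCGAA, which mark many genes of mitosis, were found in 7 member windows (17.9%), which lies between the 13.5% of windows of the genes tested and the 19.4% of all windows. The E2F share lay near that of the members in some related lists, at 7 of 20 windows of G1/S cyclins, kinases and E2F factors and 8 of 25 windows of other replication factors. In others it was lower, at 1 of 29 windows of other nucleotide synthesis enzymes (3.45%) and 1 of 12 of other chromatin assembly factors (8.33%). Among 22 mitosis genes with a window, 77.3% held a homology word and 4.55% an E2F word. In the 150 bases before the start the homology share was 27.3% for mitosis genes, 10.3% for members and 5.92% for the genes tested. In Mcm7 the last base of an E2F word is also the first base of a CCAAT word, and no other E2F word in the member windows overlapped a word of another kind. A match describes a stretch of DNA, not a bound site. Of the members with an E2F word, 13 genes, the median log2 fold change was 0.176, and of the 26 without it was 0.18. As the members were selected on this contrast, this split is no test of a role of E2F. The window at a single start was used for each gene, and with all RefSeq starts, of which 6 members have several, 15 members held an E2F word. Some genes counted as without a word thus hold one at another start.

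The levels of the 46 genes spanned a wide range. Mcm2 ranked highest, above 89.2% of the 12693 genes that averaged 0.5 RPKM or more over all libraries and were tested, and Fen1 lowest, above 14.7% of them. All 46 passed this limit on low values. In GENCODE M21 (GRCm38), Mcm2 spans chr6:88883474-88898780 on the minus strand, Mcm6 spans chr1:128331590-128359664 on the minus strand, and Lig1 spans chr7:13277283-13311433 on the plus strand. Chaf1b spans chr16:93883901-93906115 on the plus strand and Dnajc9 spans chr14:20384638-20388910 on the minus strand. The level of a gene covers its annotated exons together, with no split by isoform. Per the paper, only uniquely aligned reads that fit a single gene were counted. Levels of members that share exonic bases with another gene, such as Fen1, may thus be understated. Reads behind a value could be counted in full for the 29 members whose exon length matched GENCODE M21, from 55 for Rpa3 to 6034 for Mcm6. For the other 17 they are known only up to a common factor, and were at least 78, in Gins3. Hence the low-level members carry more counting error than the ring subunits.

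**Figure D2:**
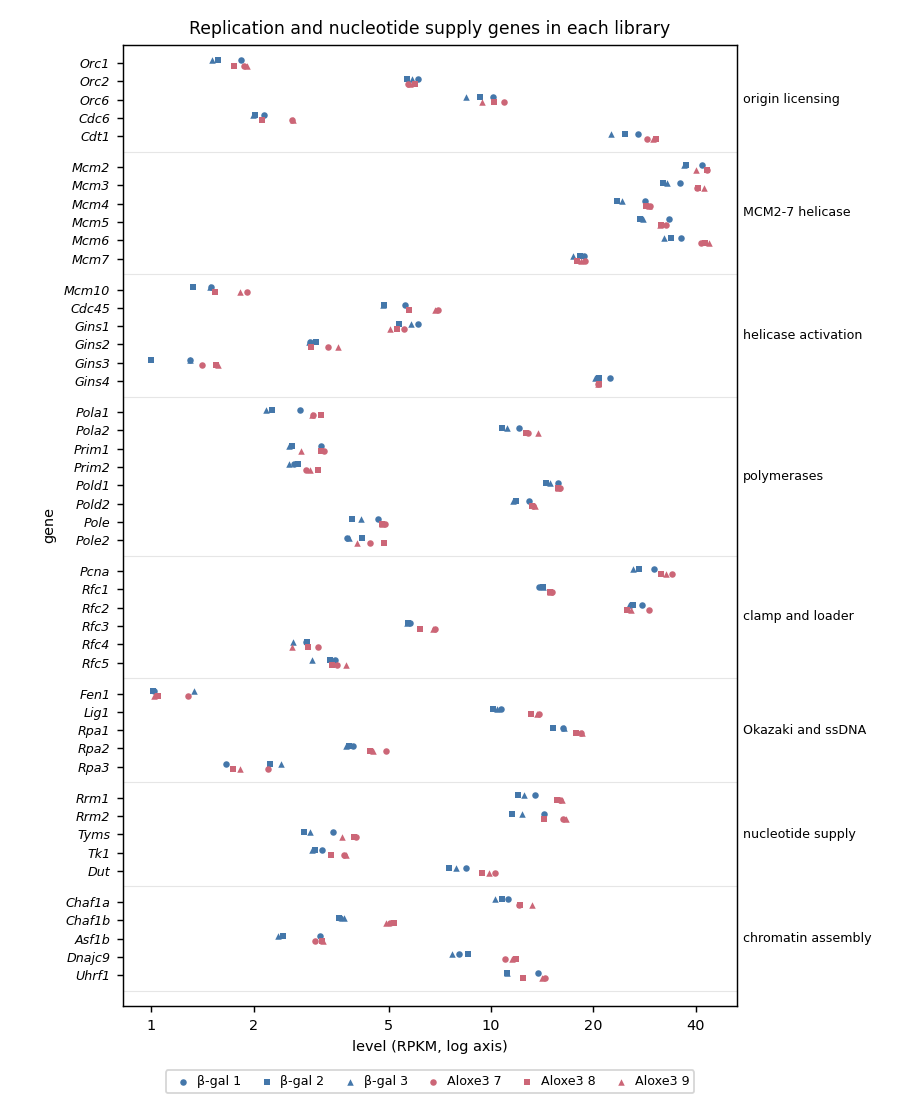
Level of each of the 46 genes in each library (RPKM, log axis), grouped by role, with β-gal libraries in blue and Aloxe3 libraries in red. Subunits of the MCM2-7 ring lie between 17.4 and 43.8 RPKM, while Gins3, Fen1 and Mcm10 lie near the lower end, and in many rows the red symbols sit to the right of the blue ones.

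As a whole, 41 of the 46 genes had a log2 fold change above 0 (log2(RPKM + 1), Aloxe3 against β-gal), where 52.4% of all genes tested did. Their median log2 fold change was 0.176, against 0.005 over all genes tested, and the range was -0.11 to 0.45. In 26 members every Aloxe3 library lay above every β-gal library, where 11.2% of all genes did, and in 0 members every Aloxe3 library lay below, where 8.71% of all genes did. In the other 20 the groups overlapped. With limma and Benjamini-Hochberg adjustment over all genes, 4 members (Dnajc9, Chaf1b, Lig1 and Mcm6) were higher at an adjusted p under 0.05, where 0.355% of all genes were, and 0 were lower, where 0.0394% of all genes were. At an unadjusted p under 0.05 there were 28 higher, beside 7.31% of all genes, and 0 lower, beside 5.42%. With no filter on low values 0 members passed the threshold (adjusted p from 0.0958 to 0.178 for these 4 in limma), and leaving out any 1 of the 6 libraries left 0 or 1. Another tool, voom on the derived reads, gave 10 higher, where it called 1.17% of all genes, and 0 lower, where it called 0.205%. Mcm6 lay at the threshold (adjusted p = 0.0498 in limma) and missed it with a pseudocount of 0.1 RPKM (0.0521), after rescaling of library medians (0.0981), quantile normalization (0.0587) or GC correction (0.0579), and without the trend (0.0842). Differences were thus small and mostly of a single sign, and as the genes were selected on this contrast nothing further is read from these counts.

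**Figure D3:**
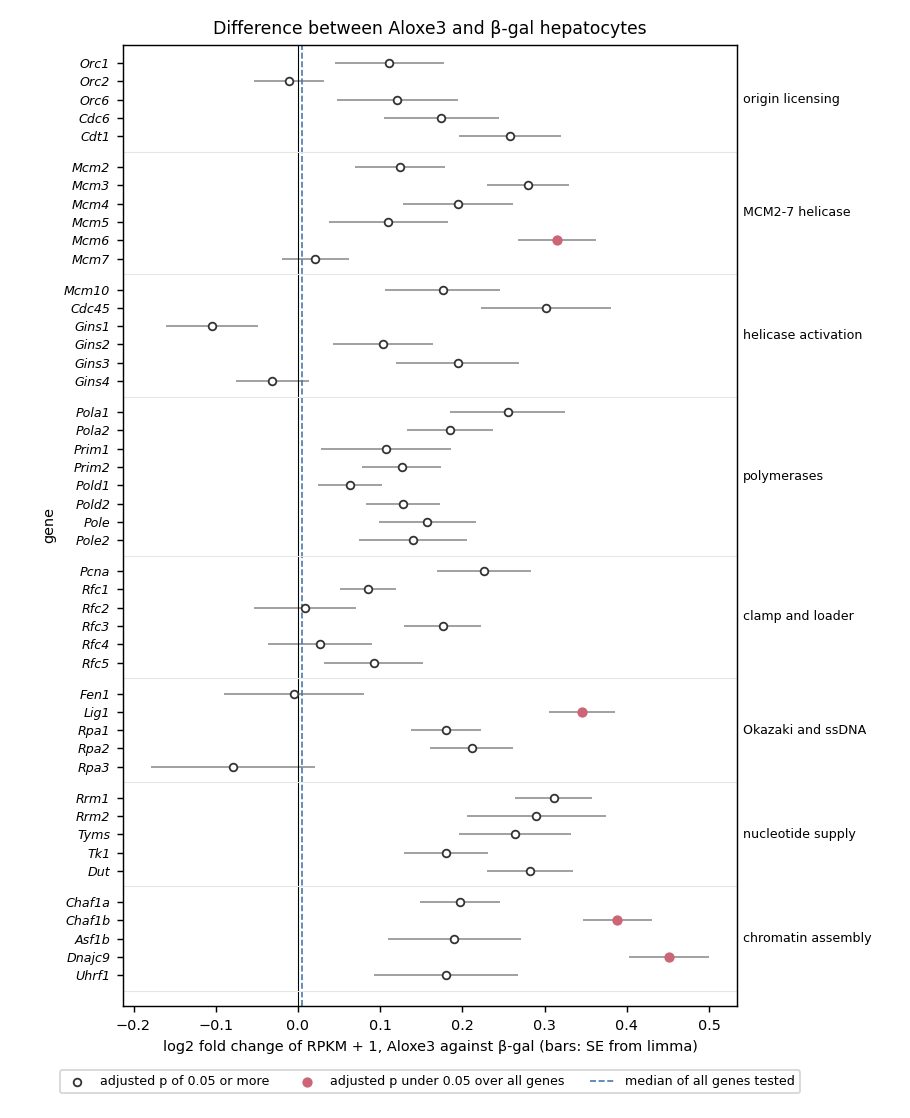
Log2 fold change of RPKM + 1 between Aloxe3 and β-gal cells for each of the 46 genes, with the SE from limma as bars; filled red points have an adjusted p under 0.05 over all genes tested, and the dashed line is the median of those genes (0.005). Dnajc9 (0.45), Chaf1b (0.39), Lig1 (0.34) and Mcm6 (0.32) are the filled points, and Orc2, Gins1, Gins4, Fen1 and Rpa3 lie left of 0.

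Origin licensing was represented by Orc1, Orc2, Orc6, Cdc6 and Cdt1. Cdt1, which brings the MCM2-7 ring to the origin, was at 27, 24.8 and 22.6 RPKM in β-gal libraries and at 28.8, 30.5 and 30 RPKM in Aloxe3 libraries. Every Aloxe3 library was above every β-gal library, with a mean of 24.8 ± 2.2 against 29.8 ± 0.86 RPKM (SD, n = 3) and a log2 fold change of 0.26 (SE 0.062). Cdc6, the ATPase that works with CDT1 in loading, averaged 2.05 ± 0.085 and 2.45 ± 0.28 RPKM, and there Aloxe3 8 (2.12 RPKM) lay among the controls. The subunits of the origin recognition complex were closer between the groups. Orc1 averaged 1.64 and 1.85 RPKM, Orc6 averaged 9.27 and 10.2 RPKM, and Orc2 averaged 5.87 and 5.82 RPKM. In all 3 the libraries of both groups overlapped. The exons of Orc2 share 1150 bases with Nif3l1 on the other strand, and the library preparation as described does not keep the strand.

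The MCM2-7 ring is the motor of the replicative helicase, and its 6 subunits were among the 10 highest members. Mcm6 was at 36.1, 33.8 and 32.3 RPKM in β-gal libraries and at 41.4, 42.5 and 43.8 RPKM in Aloxe3 libraries, which do not overlap, with a log2 fold change of 0.32 (SE 0.047). Mcm3 was at 36, 32 and 32.9 RPKM and at 40.2, 40.6 and 42.2 RPKM, with a log2 fold change of 0.28 (SE 0.050). These subunits had the largest differences of the ring. Mcm4 was at 28.3, 23.4 and 24.2 RPKM in β-gal and at 29.4, 28.5 and 29.1 RPKM in Aloxe3 libraries, where β-gal 1 came close to the Aloxe3 values. Mcm2 was at 41.6, 37.5 and 37 RPKM in β-gal and at 43.3, 43.1 and 40.1 RPKM in Aloxe3 libraries. Mcm5 was at 33.4, 27.4 and 27.9 RPKM in β-gal and at 32.7, 31.5 and 31.3 RPKM in Aloxe3 libraries. In Mcm2 and Mcm5 the groups overlapped through β-gal 1, which was above at least 1 Aloxe3 library in each. Mcm7 was at 18.7, 18.2 and 17.4 RPKM in β-gal and at 18.9, 17.9 and 18.4 RPKM in Aloxe3 libraries, a log2 fold change of 0.02 (SE 0.041) and the smallest of the ring. Its locus also holds the microRNAs Mir25 and Mir93 and overlaps Ap4m1 and Cops6, with 557 exonic bases shared. Thus subunits that work in equal numbers in the ring differed between the groups by amounts from 0.02 to 0.32 on the log2 scale.

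Helicase activation showed both signs. Cdc45, which joins the ring with GINS to form the active helicase, averaged 5.08 ± 0.43 RPKM in β-gal and 6.5 ± 0.68 RPKM in Aloxe3 cells, a log2 fold change of 0.30 (SE 0.079) without overlap. Mcm10, needed for the firing of origins, averaged 1.44 ± 0.091 and 1.76 ± 0.20 RPKM, and Gins3 averaged 1.2 ± 0.18 and 1.51 ± 0.086 RPKM, both also without overlap. The other subunits of GINS did not separate the groups. Gins4 was at 22.3, 20.8 and 20.2 RPKM in β-gal and at 20.6, 20.7 and 20.6 RPKM in Aloxe3 libraries, a log2 fold change of -0.03 (SE 0.044). Gins1 averaged 5.76 ± 0.39 and 5.28 ± 0.24 RPKM, the lowest log2 fold change of all members at -0.11 (SE 0.056), and Gins2 averaged 2.97 and 3.27 RPKM. Per length, Gins4 thus lay well above its partners Gins1, Gins2 and Gins3 in all libraries. Of the exonic bases of Gins2, 2758 are shared with Gse1 on the other strand, so the level of Gins2 may be understated.

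All 8 polymerase genes had a log2 fold change above 0 (all genes 52.4%), from 0.06 to 0.26, and 5 of them separated the groups (all genes 11.2%). Pola1, the catalytic subunit of the primase-carrying polymerase α, averaged 2.4 ± 0.30 RPKM in β-gal and 3.05 ± 0.097 RPKM in Aloxe3 cells. Its partner Pola2 averaged 11.4 ± 0.68 and 13.1 ± 0.56 RPKM. The primase subunits were smaller in difference, with Prim1 at 2.76 and 3.05 RPKM and Prim2 at 2.62 and 2.96 RPKM. Pold1, the catalytic subunit of the lagging strand polymerase δ, was at 15.7, 14.5 and 14.9 RPKM in β-gal and at 15.9, 15.7 and 15.7 RPKM in Aloxe3 libraries, so that β-gal 1 equalled the lower Aloxe3 values at this precision. Pold2, its accessory subunit, averaged 12.1 and 13.3 RPKM. Pole and Pole2, of the leading strand polymerase ε, averaged 4.23 and 4.82 RPKM and 3.91 and 4.42 RPKM. Thus the catalytic subunits of polymerases α, δ and ε differed by 0.26, 0.06 and 0.16 on the log2 scale.

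Pcna, the sliding clamp that holds polymerases on DNA, was at 30.2, 27.3 and 26.1 RPKM in β-gal and at 34, 31.6 and 32.6 RPKM in Aloxe3 libraries. The groups did not overlap, and the log2 fold change was 0.23 (SE 0.057). Of the clamp loader, Rfc3 averaged 5.72 ± 0.068 and 6.59 ± 0.36 RPKM and Rfc1, the large subunit, averaged 14 ± 0.26 and 15 ± 0.087 RPKM, both without overlap. The remaining loader subunits lay within the spread of the libraries. Rfc2 was at 27.7, 26.2 and 25.5 RPKM in β-gal and at 29.2, 25.1 and 25.8 RPKM in Aloxe3 libraries, a log2 fold change of 0.01 (SE 0.062). Rfc4 averaged 2.78 and 2.86 RPKM, and Rfc5 averaged 3.27 and 3.55 RPKM. Within the loader the differences thus ranged from 0.01 to 0.18 on the log2 scale, below that of the clamp.

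Lig1, the ligase that seals Okazaki fragments, was at 10.7, 10.1 and 10.4 RPKM in β-gal and at 13.8, 13.1 and 13.6 RPKM in Aloxe3 libraries, a log2 fold change of 0.34 (SE 0.04). The gap between the groups was several times the spread within either. Fen1, the flap nuclease that acts before LIG1, averaged 1.12 ± 0.19 and 1.11 ± 0.14 RPKM, with β-gal 3 the highest of all libraries. Its value rests on 65 to 96 reads, and 2039 of its exonic bases are shared with Gm10143 or Tmem258, so it may be understated. Replication protein A coats single-stranded DNA as a trimer. Rpa1, its large subunit, was at 16.3, 15.2 and 16.4 RPKM in β-gal and at 18.4, 17.8 and 18.5 RPKM in Aloxe3 libraries, a log2 fold change of 0.18 (SE 0.042) without overlap. Rpa2 averaged 3.84 ± 0.087 and 4.6 ± 0.27 RPKM, also without overlap. Rpa3, the small subunit, averaged 2.1 ± 0.39 and 1.93 ± 0.25 RPKM and overlapped. The large and middle subunits of the trimer thus separated the groups, and the small one did not.

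In nucleotide supply all 5 members had every Aloxe3 library above every β-gal library (all genes 11.2%), Rrm2 by a margin too small to show in the values printed, and the median log2 fold change was 0.282. Rrm1 and Rrm2 are the large and small subunits of ribonucleotide reductase, which makes deoxyribonucleotides. Rrm1 averaged 12.6 ± 0.75 RPKM in β-gal and 15.9 ± 0.30 RPKM in Aloxe3 cells (SD, n = 3), a log2 fold change of 0.31 (SE 0.047). Rrm2 averaged 12.7 ± 1.4 and 15.7 ± 1.2 RPKM, a log2 fold change of 0.29 (SE 0.084), and both its highest β-gal and its lowest Aloxe3 library were at 14.3 RPKM. The other 3 genes serve thymidylate. Dut, which removes dUTP and yields the precursor of dTMP, averaged 7.93 ± 0.46 and 9.86 ± 0.42 RPKM. Tyms, thymidylate synthase, averaged 3.06 ± 0.32 and 3.86 ± 0.20 RPKM, and the salvage kinase Tk1 averaged 3.06 ± 0.11 and 3.6 ± 0.19 RPKM. These differences were 0.28, 0.26 and 0.18 on the log2 scale.

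The members that assemble chromatin behind the fork held the 2 largest differences of all 46. Dnajc9, a histone chaperone of the heat shock protein family, was at 8.06, 8.56 and 7.65 RPKM in β-gal and at 11, 11.8 and 11.5 RPKM in Aloxe3 libraries, 1.41 times the β-gal mean and a log2 fold change of 0.45 (SE 0.049). Chaf1b, a subunit of chromatin assembly factor 1, was at 3.59, 3.56 and 3.7 RPKM in β-gal and at 5.03, 5.18 and 4.92 RPKM in Aloxe3 libraries, 1.39 times the β-gal mean and a log2 fold change of 0.39 (SE 0.042). In both the libraries of a group lay close together and the groups were well apart. Chaf1a, the large subunit of the same factor, averaged 10.8 ± 0.44 and 12.5 ± 0.62 RPKM without overlap, a log2 fold change of 0.20 (SE 0.049). Its exons share 4648 bases with Ubxn6 on the other strand. Asf1b, which passes histones to that factor, averaged 2.65 ± 0.42 and 3.14 ± 0.096 RPKM, and Uhrf1, which guides maintenance methylation of DNA, averaged 11.9 ± 1.5 and 13.6 ± 1.1 RPKM. In these last 2 genes β-gal 1 lay within the range of the Aloxe3 libraries.

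The spread within the groups was itself shared by many members. β-gal 1 was the highest of the β-gal libraries in 35 of the 46 genes, where it was so in 32.2% of all genes tested. The median of the 46 genes against the mean of the β-gal libraries was 0.073 in β-gal 1, -0.04 in β-gal 2 and -0.035 in β-gal 3, on the log2 scale. It was 0.174, 0.148 and 0.197 in Aloxe3 7, 8 and 9. All 3 Aloxe3 libraries thus lay above β-gal 1 in this median, and β-gal 1 lay above the other controls. Summed over the 46 genes the level was 538.6, 490 and 486.5 RPKM in β-gal and 583.8, 566.5 and 577.1 RPKM in Aloxe3 libraries. Without β-gal 1 the median log2 fold change was 0.197, and 36 in place of 26 members separated the groups. With 2 against 3 libraries such separation is more frequent over all genes as well, at 15.4% in place of 11.2%. β-gal 1 was also the highest control for the Kupffer cell markers, at a median of 0.169 against the β-gal mean, and for the endothelial markers, at 0.112, where the Aloxe3 libraries were at -0.156 to 0.001 and -0.065 to 0.054. The part of these cells in the levels of the 46 genes was not tested. Among the Aloxe3 libraries, Aloxe3 8 was the lowest in the mitosis genes described next.

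**Figure D4:**
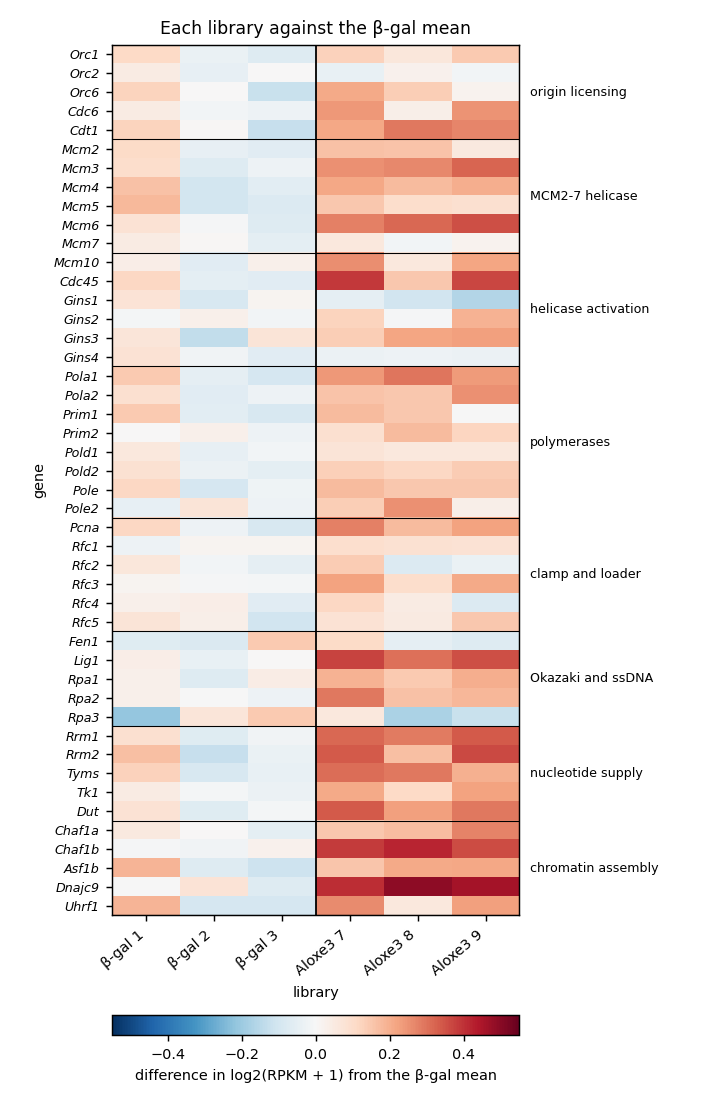
Difference of each library from the mean of the β-gal libraries for the 46 genes, in log2(RPKM + 1), with red for higher and blue for lower; the vertical line separates the β-gal from the Aloxe3 libraries. The column of β-gal 1 is mostly pale red (median 0.073) and those of the Aloxe3 libraries mostly darker red (medians 0.148 to 0.197), with Gins1 blue in all 3 of the latter.

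The rest of the proliferation pathway was then examined in 5 further lists, which were also written with earlier results of these data known. Across them 8 genes passed an adjusted p of 0.05 in limma, all higher with Aloxe3 (all genes 0.355%). In limma 0 were lower (all genes 0.0394%), and with voom also 0 (all genes 0.205%), which is near those shares. Leaving out any 1 library left 0 to 2 genes past the threshold, and 0 passed with no filter on low values. Of the G1/S cyclins, kinases and E2F factors, 5 of 26 (all genes 0.355%) were higher, 22 of 26 had a log2 fold change above 0 (all genes 52.4%), and the median was 0.089. At an unadjusted p under 0.05, 12 were higher and 1 lower (all genes 7.31% and 5.42%). Ccne2, cyclin E2, the partner of CDK2 at S phase entry, was at 2.17, 1.81 and 1.93 RPKM in β-gal and at 3.95, 3.5 and 4.71 RPKM in Aloxe3 libraries, 2.05 times higher in the mean (log2 fold change 0.76, SE 0.092, adjusted p = 0.025). Cdk2 rose from 10.1 ± 0.22 to 12.8 ± 0.24 RPKM (log2 fold change 0.32, adjusted p = 0.0226). Both components of the cyclin E kinase were therefore higher in every Aloxe3 library than in any control. The other 3 that passed, named after their values were seen, were Ccne1, E2f7 and Rbl1. Ccne1, cyclin E1, rose from 12.4 ± 1.3 to 19.2 ± 1.3 RPKM (adjusted p = 0.027). E2f7, an E2F repressor, rose from 0.825 ± 0.11 to 1.79 ± 0.22 RPKM (adjusted p = 0.0304), and Rbl1, the pocket protein p107, from 3.41 ± 0.15 to 4.58 ± 0.12 RPKM (adjusted p = 0.0332).

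**Figure D5:**
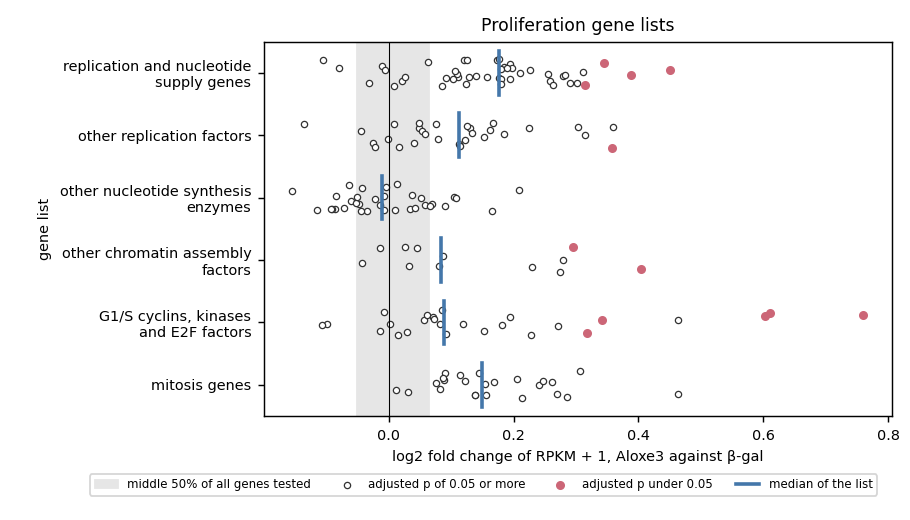
Log2 fold change of RPKM + 1 for the tested genes of the 46 and of 5 further lists, 1 point per gene with random vertical spread; filled red points have an adjusted p under 0.05, blue bars are list medians, and the grey band holds the middle of all genes tested (-0.05 to 0.064). The medians of 5 of the 6 lists lie to the right of the band, that of the other nucleotide synthesis enzymes (-0.01) lies inside it, and Ccne2 is the point at 0.76.

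Other replication factors numbered 31, of which 29 were tested, 24 had a log2 fold change above 0 (all genes 52.4%) and the median was 0.113. At an unadjusted p under 0.05, 11 of these were higher and 1 was lower (all genes 7.31% and 5.42%). Donson, which takes part in helicase assembly, was at 3.04, 3.01 and 2.84 RPKM in β-gal and at 4.11, 4.31 and 3.83 RPKM in Aloxe3 libraries (log2 fold change 0.36, SE 0.053, adjusted p = 0.0478 in limma). It alone of this list passed (all genes 0.355%). Dna2, a nuclease and helicase of Okazaki fragments, averaged 2.5 ± 0.17 and 3.5 ± 0.15 RPKM and missed the threshold (adjusted p = 0.0544). Of the other chromatin assembly factors, 2 of 12 were higher (all genes 0.355%), and 6 were higher and 0 lower at an unadjusted p under 0.05 (all genes 7.31% and 5.42%). Slbp, which binds the stem loop of histone mRNAs, rose from 6.97 ± 0.13 to 9.56 ± 0.63 RPKM (log2 fold change 0.40, adjusted p = 0.027), and the histone chaperone Nasp rose from 6.77 ± 0.14 to 8.54 ± 0.32 RPKM (log2 fold change 0.30, adjusted p = 0.0418). The other 10 genes of this list missed the threshold, and the median of the list was 0.084.

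Other enzymes of nucleotide synthesis were spread around 0. Of 34 tested, 14 had a log2 fold change above 0 (all genes 52.4%) and the median was -0.01. In limma 0 passed the threshold in either direction (all genes 0.355% higher and 0.0394% lower), and 0 passed with voom (1.17% and 0.205%). At an unadjusted p under 0.05, 4 were higher and 3 lower (all genes 7.31% and 5.42%). These counts are not far from the shares of all genes. Dctd, dCMP deaminase, averaged 10.2 ± 0.33 RPKM in β-gal and 9.39 ± 0.23 RPKM in Aloxe3 cells (adjusted p = 0.321). This list holds mostly purine and pyrimidine enzymes that also serve RNA synthesis, in contrast to the 5 members above. Of 26 mitosis genes, 24 were tested and all 24 had a log2 fold change above 0 (all genes 52.4%), with a median of 0.149. In limma 0 passed the threshold (all genes 0.355% higher and 0.0394% lower), and voom gave 4 higher (all genes 1.17%). At an unadjusted p under 0.05, 11 were higher and 0 lower (all genes 7.31% and 5.42%). Mki67, a marker of cycling cells, was at 2.67, 2.36 and 2.63 RPKM in β-gal and at 4.21, 3.29 and 4.24 RPKM in Aloxe3 libraries (log2 fold change 0.46, SE 0.085, adjusted p = 0.0974). Ect2, an activator of RhoA in cytokinesis, averaged 1.85 ± 0.073 and 2.36 ± 0.049 RPKM (adjusted p = 0.138). The mitosis genes were at a median of 0.236, 0.07 and 0.222 against the β-gal mean in Aloxe3 7, 8 and 9, on the log2 scale, so that Aloxe3 8 lay near β-gal 1, at 0.044. The 46 replication genes, at 0.148 in Aloxe3 8, did not show so wide a gap between the Aloxe3 libraries.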

How the data were processed

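RNA from 3 β-gal and 3 Aloxe3 libraries of primary murine hepatocytes was sequenced by single reads. Per the labels, the authors aligned reads to GRCm38.p2 with STAR 2.0.4b and counted them per gene with featureCounts 1.4.5. The authors deposited RPKM values for 41388 genes, and the step from counts to RPKM is not given in the sources used here. The whole-number steps of the RPKM values (tolerance 0.02) gave the reads used for scaling, from 25521908 to 32431318 per library, at which 1 read on 1 kb is worth 0.0308 to 0.0392 RPKM. Symbols, coordinates and shared exonic bases came from GENCODE M21, to which 40254 gene identifiers matched and 1134 did not. Where its exon length gave no whole reads (17 members), the smallest length that does was used, so voom can understate the reads of such genes. The 12693 genes averaging 0.5 RPKM or more were fitted on the log2(RPKM + 1) scale by limma 3.58.1 in R 4.3.3 (eBayes with trend), with Benjamini-Hochberg adjustment at 0.05 over all of them. The pseudocount of 1 RPKM understates fold changes of low genes. An exact permutation test of 3 against 3 cannot give a two-sided p below 0.1. Replicates of a group differed by more than counting error (chi-square per degree of freedom 3.47 to 9.82), and none was a copy of another. The fit was tested on simulated reads.

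The members and lists were chosen with earlier results of these data known. Values in every library are given for the 12 members with the highest mean, the subunits of the MCM2-7 ring and the members past the threshold. From each further list, 2 genes are named by lowest adjusted p, except that 1 is not reported here. The alternatives were a pseudocount of 0.1, no filter, a filter at 5 RPKM, quantile normalization, rescaling of library medians, eBayes without trend, voom on the derived reads and each library left out. A correction for transcript GC content (spline with 5 degrees of freedom) was chosen after seeing the data. Promoter windows are those of RefSeq, searched with Python 3.11.15.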

Additional observations from a re-analysis of the deposited data

How the results depend on the processing

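The median log2 fold change of the 46 genes stayed between 0.141 and 0.197 and that of Aloxe3 between 3.93 and 4.61 in all alternatives run, and the members with every Aloxe3 library above every β-gal library numbered 26 as reported (all genes 11.2%), 20 after rescaling (9.02%) and 26 to 36 with a library left out, where 2 against 3 libraries separate more often (15.1% to 19% of all genes). Counts past the adjusted p threshold were less stable. Members past it numbered 4 as reported, 3 with a pseudocount of 0.1 RPKM, rescaling, quantile normalization, no trend or the GC correction, each without Mcm6, 5 with a minimum mean of 5 RPKM, 0 with no filter on low values (24989 genes tested), 10 with voom on the derived reads, and 0 to 1 with a library left out. Genes of the other proliferation lists past it numbered 8 as reported, 0 with no filter, 4 with a minimum mean of 5 RPKM, 5 after rescaling to the same median, 3 after quantile normalization, 5 without the trend, 22 with voom, and 0 to 2 with a library left out. Over all genes the calls were 50 as reported, 7 with no filter, 174 with voom and 6 to 19 with a library left out. Why the counts changed between these alternatives was not tested. Member promoters with an E2F word numbered 7 (17.9%) in place of 13 (33.3%) in the 150 bases before the start, where the share over the genes tested was 2.33% in place of 4.22%. Of 759 values of single genes under the alternatives, 662 kept their direction and side of the threshold, 71 became weaker, 12 stronger and 14 changed sign. The last were in 6 members with a log2 fold change of at most 0.03 in size. Rfc2 was at -0.01 after rescaling, Rfc4 at -0.01 after quantile normalization and Fen1 at 0.01 after the GC correction. With a library left out Orc2 ranged from -0.03 to 0.01, Mcm7 from -0.01 to 0.04, Gins4 from -0.06 to 0.01, Rfc2 from -0.06 to 0.05, Rfc4 from -0.02 to 0.08 and Fen1 from -0.06 to 0.07. No paired analysis was possible because the groups share no replicate numbers. Among the members whose reads could be counted in full, depth limits Rpa3 and Fen1 most. Gins3 may rank with them, as its reads are known only up to a common factor.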
